A study of Mus musculus with 6 samples.

Results

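Immediate early genes are the genes that cells transcribe first after a stimulus such as serum, a growth factor or depolarisation. The group described here holds Egr1, Egr2, Fos, Fosb, Junb, Ier2, Ier3, Dusp1, Atf3 and Nr4a1, chosen by annotated symbol. Each of the 10 genes had 1 probe, so 10 of 31769 probes and 10 of 17865 named genes belonged to the group. Their RNA was compared between MN9D cells transfected with pcDNA3.1(-)-Lmx1a and MN9D cells transfected with the empty plasmid. MN9D is a mouse dopaminergic line made by fusing embryonic midbrain cells with neuroblastoma cells, and Lmx1a is a LIM homeodomain factor of midbrain dopamine neuron development. Per the labels, cells on 10-cm dishes received 6 µg of Lmx1a plasmid or an equimolar amount of the empty plasmid, with a cloning plasmid as carrier. They were split 1:3 into fresh medium 5 to 6 hours later, in medium with 10% fetal calf serum, and harvested at 90 to 95% confluence. The time from medium change to harvest is not given in the sources used here. There were 3 RNA pools of Lmx1a-transfected cells, each from 3 dishes, and 1 control pool from 9 dishes. Each Lmx1a pool was hybridised against the control pool on 2 arrays with the dyes swapped, giving 6 arrays. The cells were transfected transiently and as whole dishes, so a ratio averages transfected and untransfected cells. Fewer cells with a transcript and less RNA per cell cannot be told apart in it.

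These genes need no new protein synthesis to be induced. Serum and growth factors act through ERK kinases and ternary complex factors with SRF at the serum response element, whose core is the CArG box. Cyclic AMP and calcium act through CREB at the cAMP response element, built on the core TGACG. The products include transcription factors that start the next wave of genes, and inhibitors that end the signal, such as the MAP kinase phosphatase encoded by Dusp1. In neurons the same genes serve as markers of recent activity.

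Dusp1 and Ier3 were taken as members with ratios above 0, and Fos, Egr2 and Nr4a1 as members without. The promoters of these 5 are printed to show which response elements lie close to a start. Each is the 250 bases before an annotated start, read 5′ to 3′ from RefSeq's sequence of GRCm38.p6. Capitals mark TGACG on either strand and the CArG box.
Dusp1, chr17:26508473-26508722, minus strand: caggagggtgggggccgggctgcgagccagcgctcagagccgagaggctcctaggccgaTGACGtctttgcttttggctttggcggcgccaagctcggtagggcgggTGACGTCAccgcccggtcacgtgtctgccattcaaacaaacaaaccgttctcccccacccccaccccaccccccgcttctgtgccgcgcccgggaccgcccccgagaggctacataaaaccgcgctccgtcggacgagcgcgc
Ier3, chr17:35821463-35821712, plus strand: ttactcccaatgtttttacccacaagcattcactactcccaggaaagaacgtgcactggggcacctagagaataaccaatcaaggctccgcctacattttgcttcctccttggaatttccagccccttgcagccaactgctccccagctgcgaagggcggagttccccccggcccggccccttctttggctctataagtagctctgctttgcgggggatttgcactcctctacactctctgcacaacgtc
Fos, chr12:85473640-85473889, plus strand: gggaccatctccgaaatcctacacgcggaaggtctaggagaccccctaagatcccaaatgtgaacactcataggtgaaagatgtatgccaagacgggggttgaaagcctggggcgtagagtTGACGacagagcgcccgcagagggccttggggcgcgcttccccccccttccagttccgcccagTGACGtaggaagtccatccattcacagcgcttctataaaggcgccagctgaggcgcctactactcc
Egr2, chr10:67537619-67537868, plus strand: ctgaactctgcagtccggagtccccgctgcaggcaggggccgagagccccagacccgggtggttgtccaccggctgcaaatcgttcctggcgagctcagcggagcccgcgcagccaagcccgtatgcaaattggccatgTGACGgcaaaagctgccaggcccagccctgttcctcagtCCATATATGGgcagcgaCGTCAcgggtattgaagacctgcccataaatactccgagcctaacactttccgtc
Nr4a1, chr15:101266596-101266845, plus strand: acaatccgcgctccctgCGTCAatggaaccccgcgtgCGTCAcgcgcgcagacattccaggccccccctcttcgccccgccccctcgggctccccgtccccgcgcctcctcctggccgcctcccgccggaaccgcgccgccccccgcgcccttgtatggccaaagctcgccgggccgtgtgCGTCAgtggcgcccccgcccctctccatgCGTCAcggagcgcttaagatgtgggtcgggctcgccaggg
RefSeq windows were matched for 8 of the 10 members, all but Egr1 and Ier2, with 5 listed starts for Egr2. Of these 8, 7 held TGACG on either strand in at least 1 window, against 17.8% of 32851 promoter windows of the same length. Ier3 was the one without. Such shares are per window, whereas a gene was counted if any of its windows matched. Base composition was not matched, so the counts and shares are not like for like. The Dusp1 window held the full palindrome TGACGTCA, which contains TGACG on both strands and was in 1.55% of all windows. Among the 8 genes the CArG box was found for Egr2 alone, against 1.47% of all windows. Bases further upstream than 250 were not searched, so the other genes lack the box only in these windows. The EGR site GCGNGGGCG was found for Fosb and Nr4a1, against 4.70%. The homeodomain letters TAATTA, searched because Lmx1a is a homeodomain factor, were found for 0 of the 8 genes, against 4.84% of windows. Such letters are a description of these windows, not of binding.

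Median background-subtracted brightness per array was 12.9 to 42.4 in Cy5 and 9.02 to 20.7 in Cy3. The dimmest array was that of pool 1 with Lmx1a RNA in Cy3. The Lmx1a probe gave log2 ratios of Lmx1a-transfected over control RNA of 2.50, 2.60 and 2.75 with Lmx1a RNA in Cy5, and 0.93, 2.95 and 3.19 with the dyes swapped, for pools 1, 2 and 3. The low value came from the dimmest array. The mean over pools was 2.49 ± 0.68 (SD, n = 3), or 5.61-fold, with a limma adjusted p of 0.0779, and 0.00721 with a replicate block on the 6 arrays. Of 13 dopaminergic and neuroendocrine marker genes measured, 9 had a detected signal in 1 or both channels of each array, among them Th, Ddc and Slc18a2. By that measure 44.9% of all probes were detected. Each marker was taken by its brightest probe, so the counts and that share are not fully like for like. In limma's fit 0 of the 13 passed, with 4 above 0 and 1 below at an unadjusted p under 0.05. Of all probes 6.23% were above and 5.56% below by that measure, and of those detected on every array 11.98% and 10.8%. The replicate block called 1.08% of all probes and 2.36% of the detected ones. With the block 1 was called, the vesicular transporter gene Slc18a2, named after its values were seen, at 0.20 ± 0.053 (SD, n = 3; adjusted p 0.0799, and 0.0188 with the block). The dopamine transporter gene Slc6a3 and the factor genes Pitx3 and Foxa2 were not detected in any channel on any array. Of 13 measured markers of other cell types 6 were detected by the same measure, near the 44.9% of all probes. In limma's test 0 passed, and the median ratio was -0.0021.

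Most of the immediate early genes were measurable in these growing cultures. Detection required the spot's mean to lie more than 2 background standard deviations over the median of its local background. In both channels and on every array, 6 members were detected: Fosb, Ier2, Ier3, Dusp1, Atf3 and Nr4a1. Of all 31769 probes 12465 were. In 1 or both channels of each array, 7 of the 10 members were detected, against 44.9% of all probes. Egr1 was detected in the Lmx1a channel on 6 of 6 arrays and in the control channel on 5 of 6, the exception being the dimmest array. Egr2 was detected on 4 arrays in the Lmx1a channel and 5 in the control channel, and Fos on 3 and 5. Junb, encoding a JUN-family partner of FOS proteins, was at 0.076 to 0.65 background standard deviations and was not well above background in either channel on any of the 6 arrays. No fold is therefore given for Junb.

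**Figure D1:**
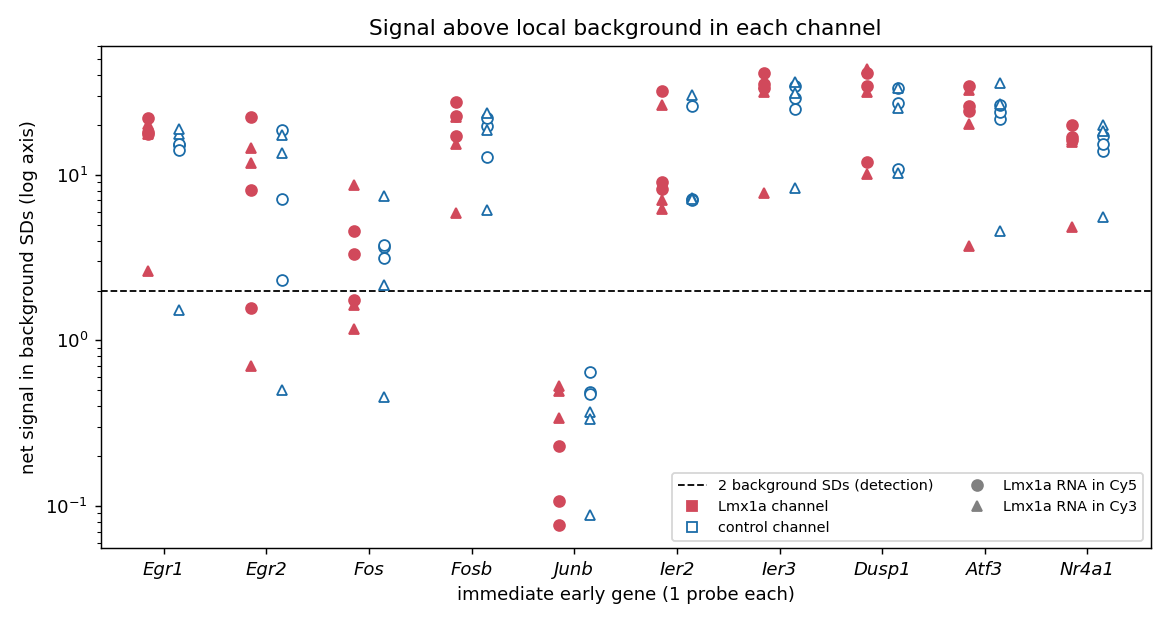
Net signal of each member's probe in units of the local background standard deviation (log axis), in the Lmx1a channel (filled red) and the control channel (open blue), 1 point per array. Circles are arrays with Lmx1a RNA in Cy5 and triangles are swapped arrays. All Junb points lie below the dashed line at 2, and the lowest points of Egr1, Egr2 and Fos also fall below it.

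The control pool was the same RNA on every array, so the spread of a member's control signal in 1 dye shows how far spots vary. With control RNA in Cy3, net control signals ran from 66.4 to 69.8 units for Egr1, and from 35.0 to 125 for Ier2. For Egr2 they ran from 10.8 to 83.0. Brightness of a spot on 1 array is thus not used below as a level. The ratio within a spot, in which both channels share the spot, carries the comparison.

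Egr1 encodes a zinc finger factor that follows ERK signalling, and its ratio was above 0 on every array. The log2 ratio of Lmx1a over control was 0.18, 0.21 and 0.12 in pools 1, 2 and 3 with Lmx1a RNA in Cy5. With the dyes swapped it was 0.086, 0.11 and 0.074. The pool means were 0.13, 0.16 and 0.095, so the 3 pools lay on the same side. On the swapped array of pool 1, the dimmest, the control channel was below the detection limit. The mean of the pools was 0.13 ± 0.032 (SD, n = 3), or 1.09-fold, with a 95% interval of 0.082 to 0.18 in limma's fit. That SD was higher than the SD of 51.1% of all probes. Limma's fit of the pools, with Benjamini-Hochberg adjustment over all 31769 probes, gave Egr1 an adjusted p of 0.106, which does not pass 0.05. Fitted as 6 arrays with a replicate block, limma gave an adjusted p of 0.0204, which does. That fit's correlation between arrays of 1 pool was -0.29, which makes its error smaller than for 6 independent arrays. With a dye term beside the block, chosen after the data were seen, the correlation was 0.068 and the adjusted p 0.0202. In that last fit Egr1 passed without the Cy5 array of pool 3 (adjusted p 0.0382), and did not pass without any one of the other 5 arrays (adjusted p 0.0529 to 0.0896).

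Egr2, a paralog best known for its role in Schwann cell myelination and hindbrain patterning, did not share this pattern. Its ratio was -0.051, 0.13 and 0.061 with Lmx1a in Cy5, and -0.020, -0.065 and -0.072 in Cy3. The arrays lay on both sides of 0. The mean of the pools was -0.0029 ± 0.034 (SD, n = 3), with an interval of -0.051 to 0.046 and a limma adjusted p of 0.982. The interval allows from 0.965-fold to 1.03-fold with a background offset of 50, which draws ratios of dim spots towards 0. With plain background subtraction, without the offset, the mean was -0.079, below that interval (limma adjusted p 0.813). On the array of pool 1 with Lmx1a in Cy5 the Lmx1a channel, and on the dimmest array both channels, were below the detection limit.

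Fos, Fosb and Atf3 encode bZIP factors, and their means ran from -0.074 to -0.0062, with 0 of the 3 passing the test. Fos, the prototype of the class, gave -0.19, 0.067 and 0.028 with Lmx1a in Cy5 and 0.059, -0.11 and 0.074 in Cy3. The 3 pools gave -0.066, -0.019 and 0.051, on both sides of 0. The mean was -0.012 ± 0.059 (SD, n = 3), with a limma adjusted p of 0.935. The interval ran from -0.075 to 0.052, with the Fos probe detected in the Lmx1a channel on only 3 of 6 arrays.

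Fosb, whose products dimerise with JUN proteins, gave higher ratios with Lmx1a in Cy5 than with the dyes swapped. With Lmx1a in Cy5 its ratios were 0.071, 0.071 and 0.14, while the swapped arrays gave 0.0047, -0.15 and -0.17. The 2 dye orientations did not overlap, which was also so for Egr1, Ier2 and, narrowly, Nr4a1. How many of all probes do so was not counted. Its Cy5 over Cy3 ratio was 0.098 ± 0.060 (SD, n = 3), with an adjusted p of 0.0619 in limma's test of dye bias, which does not pass 0.05. The pool means were 0.038, -0.041 and -0.015. Their mean was -0.0062 ± 0.040 (SD, n = 3), with an interval of -0.058 to 0.046 and a limma adjusted p of 0.961.

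Atf3, a stress-inducible bZIP factor, had the most negative mean of the 10. Its ratios were 0.14, -0.14 and 0.062 with Lmx1a in Cy5, and -0.11, -0.28 and -0.12 in Cy3. Pool 2 was low in both orientations, while the other pools had 1 array on each side of 0. The pool means of 0.017, -0.21 and -0.028 averaged -0.074 ± 0.12 (SD, n = 3), with an interval of -0.18 to 0.036. The limma adjusted p was 0.629, and without replicate 2 the mean was -0.0056. Atf3 was also the only member called for dye bias, its Cy5 over Cy3 ratio being 0.094 ± 0.029 (SD, n = 3; limma adjusted p 0.0323). Of all probes 6.8% were called for dye bias, and of those detected on every array 12.4%.

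Nr4a1 encodes an orphan nuclear receptor related to Nurr1, the factor of midbrain dopamine neurons. Its ratios were 0.077, -0.040 and -0.062 with Lmx1a in Cy5, and -0.064, -0.11 and -0.080 in Cy3. The ratio was below 0 on 5 of 6 arrays, and the exception was in pool 1. The mean of the pools was -0.047 ± 0.046 (SD, n = 3), with an interval of -0.10 to 0.0086 and a limma adjusted p of 0.515.

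Dusp1, the phosphatase that switches off MAP kinases, had the highest mean of the group, and 1 array carried much of it. With Lmx1a in Cy5 the ratios were 0.096, 0.15 and 0.13, which lie close together. With Lmx1a in Cy3 they were -0.0086, 0.12 and 0.55. On the array that gave 0.55, that of pool 3, the Lmx1a channel was at 192 units and the control channel at 226, at 43.7 and 25.4 background standard deviations. The mean of the pools was 0.17 ± 0.15 (SD, n = 3), or 1.13-fold, with an interval of 0.037 to 0.31 and a limma adjusted p of 0.313. Without that array the mean was 0.10 (adjusted p 0.317), and without replicate 3 altogether it was 0.090. On the 3 arrays with Lmx1a in Cy5 alone the mean was 0.13 and limma's adjusted p was 0.0473, in a fit that called 3.13% of all probes and cannot separate dye from group.

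Ier3, a small protein linked to cell survival, was above 0 on 6 of 6 arrays. Its ratios were 0.26, 0.063 and 0.042 with Lmx1a in Cy5, and 0.071, 0.12 and 0.097 in Cy3. Pool 1 was highest through its Cy5 array, and the other 5 arrays lay between 0.042 and 0.12. The mean of the pools was 0.11 ± 0.051 (SD, n = 3), or 1.08-fold, with an interval of 0.050 to 0.17. The limma adjusted p was 0.187. With the replicate block it was 0.0780, also above the threshold. Ier2, a serum-inducible nuclear protein, gave 0.13, 0.049 and 0.017 with Lmx1a in Cy5 and -0.055, -0.10 and 0.012 in Cy3. Those arrays lay on both sides of 0, and the mean was 0.0077 ± 0.032 (SD, n = 3), with an interval of -0.040 to 0.055 and a limma adjusted p of 0.945.

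**Figure D2:**
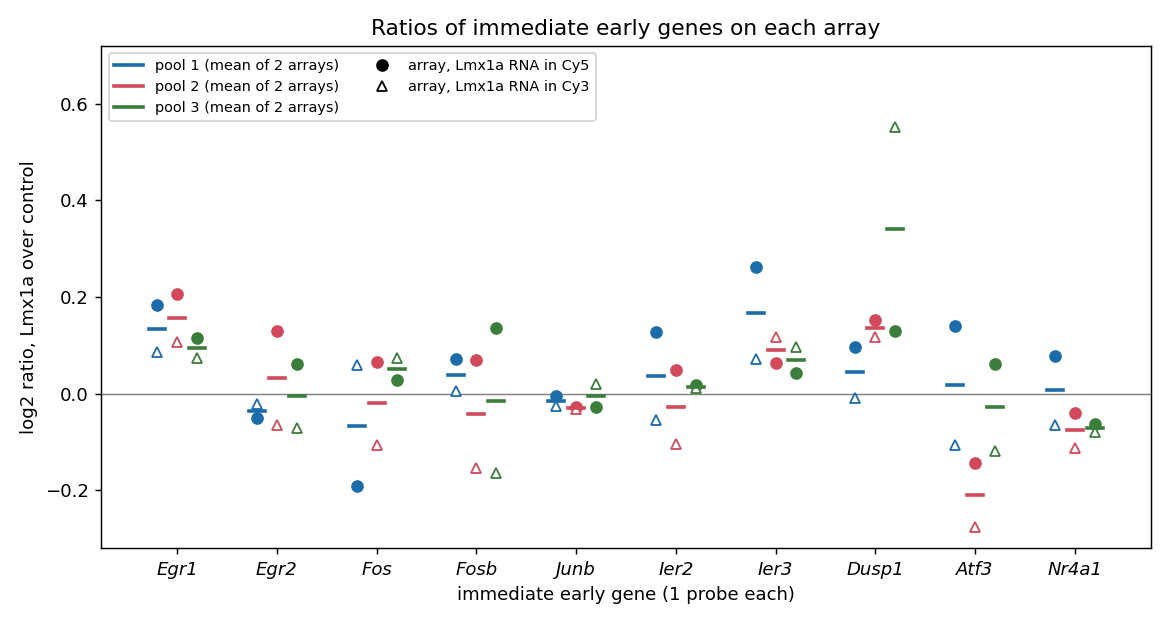
Log2 ratio of Lmx1a-transfected over control RNA for each member on each of the 6 arrays. Filled circles have Lmx1a RNA in Cy5, open triangles have it in Cy3, colours mark the 3 pools and short bars are pool means. Egr1 and Ier3 lie above 0 on all arrays, and the highest point is the Dusp1 array of pool 3 at 0.55.

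As a group the immediate early genes did not move together. In limma's fit of the 3 pools, 0 of the 10 members passed an adjusted p of 0.05, as did 0% of all probes. At an unadjusted p under 0.05 there were 3 of 10 higher, Egr1, Ier3 and Dusp1, where 6.23% of all probes were, and 0 of 10 lower, where 5.56% were, against 11.8% in either direction. Probes detected in at least 1 channel on all arrays, 14256 in number, are the closer comparison for these 3, and of them 11.98% were higher and 10.8% lower. In the replicate block fit 1 of 10 was called higher, Egr1, where 0.353% of all probes were, and 0 lower, where 0.724% were, against 1.08% in either direction. Among the detected probes the block called 2.36%. With the dye term added it was again 1, Egr1, against 1.05% of all probes. With 10 members such shares are coarse, and they are read as a description. Egr1 and Ier3 kept a positive ratio across the 6 arrays, as 2.66% of all probes did, and 0 members kept a negative one, as 2.61% did, so that 2 of 10 kept 1 sign against 5.28%. In the 3 pools 4 members kept 1 sign, against 32.5%, but 1 of these is Junb, whose signal was too low to measure a ratio. Of the 10 means 4 were above 0, against 51.0% of all probes, and the median was -0.0046, against 0.00063. Over the 7 members with a detected signal on every array, which leaves out Junb, Fos and Egr2, 4 were above 0 and the median was 0.0077, so its sign turned. Of the 10, 0 reached 1.5-fold in either direction, as did 0.0063% of all probes. A mean at least as high as that of Egr1 was found for 0.885% of all probes. The offset draws ratios of dim probes towards 0, so this share may make Egr1 look rarer than it is among detected probes. The median absolute log2 ratio was 0.029 over the 14256 detected probes, against 0.017 over all probes. Neither the share at or above Egr1 nor the shares keeping 1 sign were counted among the detected probes.

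**Figure D3:**
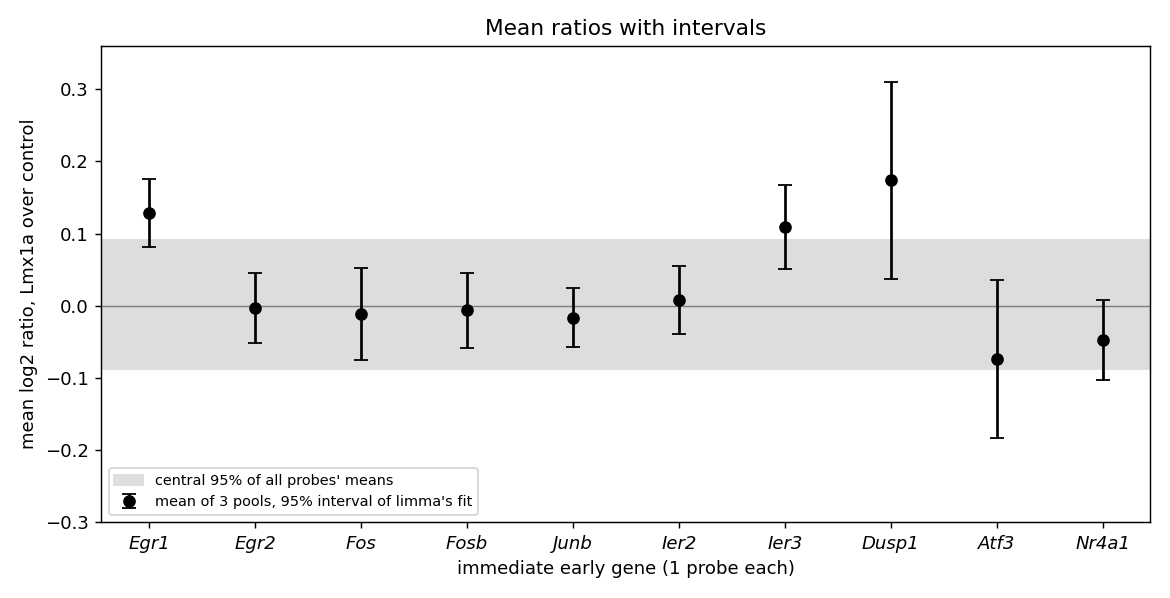
Mean log2 ratio of the 3 pools for each member, with the 95% interval of limma's fit, not adjusted for the number of probes. The grey band spans the central 95% of the means of all 31769 probes, from -0.088 to 0.092. The means of Egr1, Ier3 and Dusp1 lie above the band, although the same span is wider, from -0.12 to 0.12, for the 14256 probes detected on every array and includes Ier3. The intervals of the other 7 members include 0, with Junb drawn although its signal was not well above background.

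Counts over the group are given by pool and by dye, beside those of all 31769 probes. The median ratio of the 10 members was 0.027, -0.023 and 0.0053 in pools 1, 2 and 3, with 7, 4 and 5 members above 0. Of all probes 16176, 15978 and 15950 were above 0 in these pools. By array, 7, 7 and 8 members were above 0 with Lmx1a in Cy5, and 4, 3 and 6 on the swapped arrays. All probes leaned the same way, with 16837, 16982 and 16997 above 0 in Cy5 and 15173, 14927 and 14799 on the swapped arrays. With 10 members such counts are coarse. The median Cy5 over Cy3 ratio of the members was 0.039, against 0.0048 over all probes. The means of Egr1, Ier3 and Dusp1 weight both orientations equally, and limma's test of dye bias gave them adjusted p-values of 0.191, 0.790 and 0.564. By orientation the means were 0.17 and 0.089 for Egr1, 0.12 and 0.095 for Ier3, and 0.13 and 0.22 for Dusp1, the Cy5 orientation first.

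**Figure D4:**
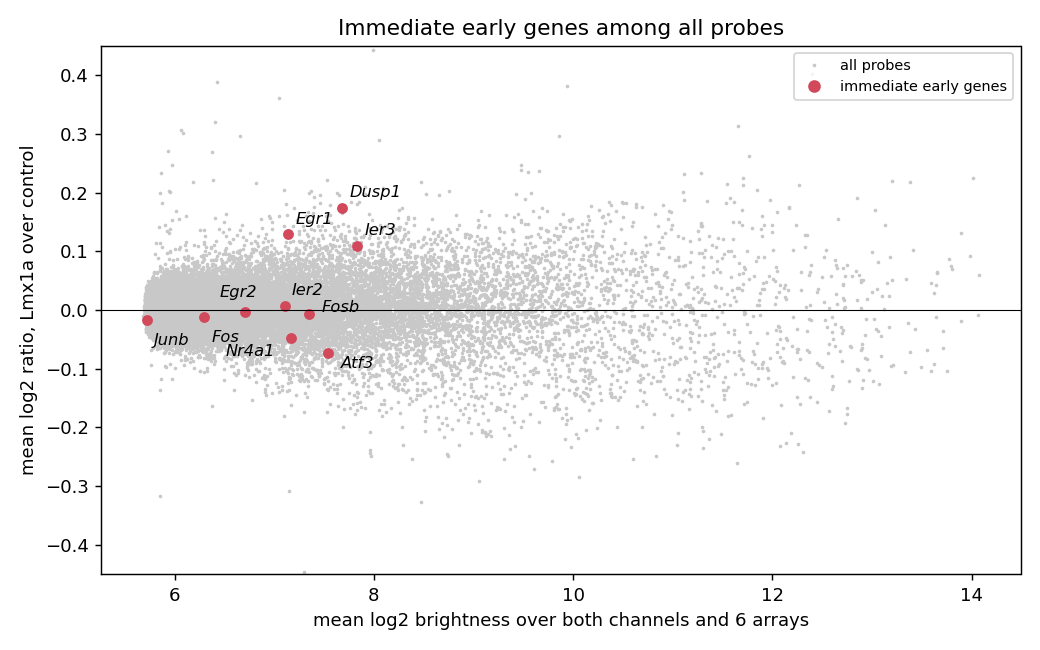
Mean log2 ratio of every probe (grey) against its mean log2 brightness over both channels and all arrays, with the 10 members in red. Probes beyond 0.45 in either direction, 2 in all, are not drawn. Dusp1, Egr1 and Ier3 lie in the upper part of the cloud and the other members within it.

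Further immediate early genes were described through a list of 43, chosen like the members with earlier results of these data known. Of these, 40 were measured and 23 had a mean above 0, with a median of 0.0070. In limma's fit 0 passed, and 5 genes above 0 and 2 below had an unadjusted p under 0.05, against 6.23% and 5.56% of all probes and 11.98% and 10.8% of detected ones. The 3 with the smallest p were Gem, Tiparp and Mcl1. Gem, a small GTPase of the RGK family, gave 0.085, 0.31 and 0.24 in pools 1, 2 and 3, with a mean of 0.21 ± 0.11 (SD, n = 3; limma adjusted p 0.166), above 0 on 6 of 6 arrays. In the replicate block fit Gem had an adjusted p of 0.0335. Tiparp, an ADP-ribosyltransferase, gave 0.14, 0.31 and 0.090, with a mean of 0.18 ± 0.11 (limma adjusted p 0.206), also above 0 on 6 of 6 arrays. Mcl1, an anti-apoptotic BCL2 relative, was at 0.10 ± 0.068 (limma adjusted p 0.272), and a second Mcl1 probe gave 0.097. Pool 2 was the highest for all 3, as it was for Egr1, whereas Ier3 was highest in pool 1 and Dusp1 in pool 3.

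Of the kinases and factors upstream, 26 of 30 were measured and 0 passed, and the median was 0.00051. Unadjusted p-values under 0.05 were found for 6 genes above 0 and 1 below, against the same 6.23% and 5.56% of all probes. Of probes detected on every array, the closer comparison, 11.98% and 10.8% had them. Mapk8, encoding the stress kinase JNK1, gave 0.12, 0.17 and 0.11 in pools 1, 2 and 3, with a mean of 0.13 ± 0.031 (SD, n = 3). Its limma adjusted p was 0.102, and 0.0188 with the replicate block. Mapk8 was above 0 on 6 of 6 arrays and detected on 5 in each channel. The ternary complex factor gene Elk3 was at 0.081 ± 0.020 (limma adjusted p 0.182), but its mean was 0.015 over the Cy5 arrays and 0.15 over the swapped ones. Map2k2, encoding the ERK kinase MEK2, was at -0.087 ± 0.030 (limma adjusted p 0.185).

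Feedback regulators and co-repressors gave 0 calls among 20 of 21 genes measured. At an unadjusted p under 0.05 there were 3 above 0 and 0 below. The shares beside them are again 6.23% and 5.56% of all probes, and 11.98% and 10.8% of detected ones. Spred1, a RAS pathway inhibitor, was at 0.078 ± 0.039 (SD, n = 3; limma adjusted p 0.245), and the phosphatase genes Dusp5 and Dusp6 were at 0.067 ± 0.046 and 0.059 ± 0.043 (limma adjusted p 0.337 and 0.380). Each leaned on 1 orientation, with Spred1 at 0.13 and Dusp5 at 0.11 with Lmx1a in Cy5, and Dusp6 at 0.13 in Cy3. Dimer partners and paralogs gave 0 calls among 15 genes, all measured. With an unadjusted p under 0.05 there were 2 above 0 and 0 below, beside the same shares of all and of detected probes. Atf2, a CREB-family bZIP factor, was at 0.079 ± 0.027 (limma adjusted p 0.201), above 0 on 6 of 6 arrays, and its other probe gave 0.078. Rxrb, a retinoid X receptor, was at 0.068 ± 0.031 (limma adjusted p 0.267). Fosl1, encoding FRA1, was at -0.069 ± 0.090 (limma adjusted p 0.542), with pool 2 at -0.17.

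Across the alternatives for background, normalisation and choice of arrays, Egr1 ranged from 0.089 with Lmx1a in Cy3 only to 0.24 with plain background subtraction, Ier3 from 0.077 to 0.14, and Dusp1 from 0.090 to 0.24. These 3, like Lmx1a, stayed above 0 under all alternatives. With plain subtraction limma's adjusted p was 0.731 for each of the 3 and 0.335 for Lmx1a. With a variance trend and robust prior in limma it was 0.664 for each of the 3 and for Lmx1a. In the authors' deposited table the mean log2 ratios were 0.12 for Egr1, 0.11 for Ier3 and 0.17 for Dusp1. The sign of Egr2, Fos, Fosb, Ier2 and Atf3 changed with at least 1 alternative, and that of Nr4a1 did not.

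**Figure D5:**
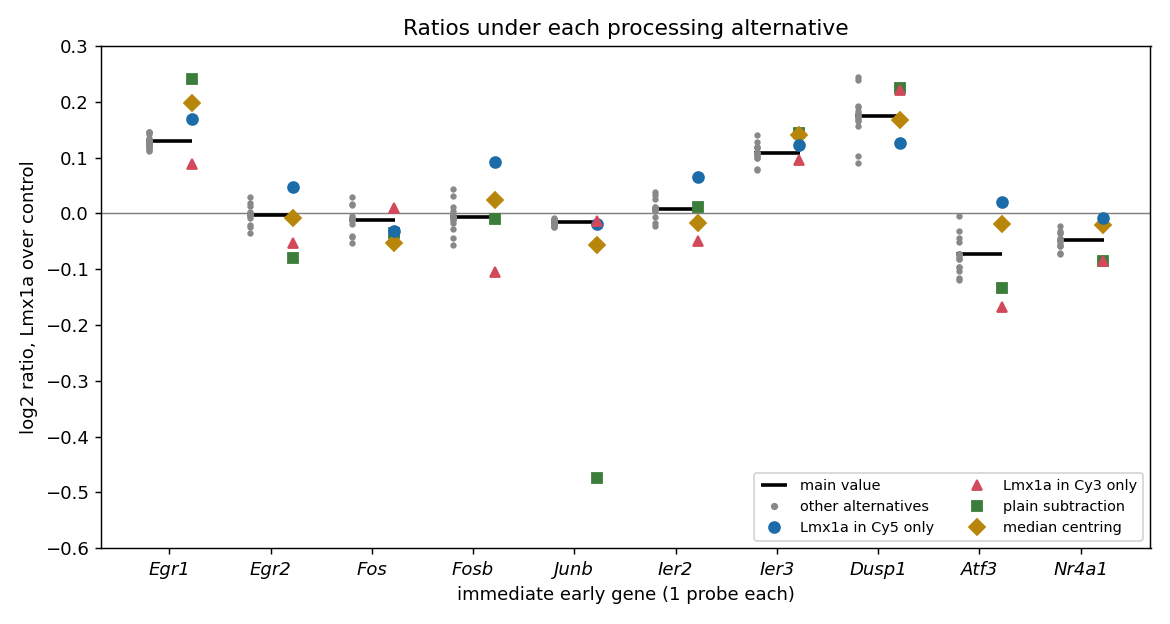
Log2 ratio of each member under every processing alternative. Black bars are the values reported above, coloured symbols are 4 alternatives named in the legend, and grey dots are the others. Egr1, Ier3 and Dusp1 stay above 0 throughout, while Fosb spans -0.10 to 0.092 and the lowest point is Junb, not well above background, at -0.47 with plain subtraction.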

How the data were processed

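Spot intensities on a linear scale (mean of spot pixels, median and standard deviation of local background) were deposited for each array, per the file headers. Per the labels, channel 1 is Cy5 and channel 2 is Cy3. The authors also deposited log2 ratios, direction and scale unstated. Read from the values, they give Lmx1a over control on all arrays and track a print-grid loess without background subtraction (r 0.996 to 0.999, slope 1.00). Their column medians ran from -0.0034 to 0.0042, and they served as an alternative. The scanner is not given in the sources used here. Probe names came from GEO's platform annotation through the spot position, updated by RefSeq synonyms for 2865 probes. 26000 probes had 1 gene, 0 several and 5769 none.

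Of 34992 spots, 3223 controls were left out after background modelling. Background was corrected by normexp (offset 50) and ratios by loess (span 0.3) with limma 3.58.1 in R 4.3.3. The offset draws ratios of dim spots towards 0, so folds and intervals hold for this setting. With plain subtraction Lmx1a was at 3.79 and Egr1 at 0.24. Swapped arrays were turned and the 2 arrays of a pool averaged, so n = 3. Ratios were tested against 0 by lmFit and eBayes, adjusted over all probes. The control pool is 1 sample, whose own spread is left out. No label states separate transfections for the Lmx1a pools. The p-values therefore cover only the spread between pools, which may be technical. Their number limits the precision. In the block fit, arrays of 1 pool share both RNA extracts. Their consensus correlation was -0.29, or 0.068 with a dye term. Either value counts the 6 arrays as nearly 6 replicates or more, so the block p-values may be too small. Swapped arrays of 1 pool correlated at r -0.21 to 0.032. Arrays of different pools in the same dye orientation correlated at 0.32 to 0.50. The procedure was tested on simulated data. Members and lists were chosen with earlier results of these data known. From the 4 lists of related genes, those past the threshold or, with none, the 3 of smallest p on the brightest probe are named. From the 2 marker lists, genes are named for detection, and Slc18a2 also for its call in the block fit.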

Additional observations from a re-analysis of the deposited data

Results flagged for a closer look

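A single array stood apart from the other 5 for 3 of 11 probes examined, by the gap of the highest or lowest array relative to the range of all 6. Chance alone marks about 1 in 20 such sets, and the 6 values mix both dye orientations. For Ier3, the pool 1 array with Lmx1a in Cy5 gave a log2 ratio of 0.26, with the others between 0.042 and 0.12. For Dusp1, the pool 3 array with Lmx1a in Cy3 gave 0.55, with the others between -0.0086 and 0.15. For Lmx1a, the dimmest array gave 0.93, with the others between 2.50 and 3.19.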

How the results depend on the processing

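The median ratio of the 10 members, -0.0046, became 0.055 with Lmx1a in Cy5 only, -0.031 in Cy3 only and 0.030 without the Cy3 array of pool 2. It ran from -0.0017 to 0.0035 when 1 replicate was left out, and was 0.0077 over the 7 members detected on every array. Members called were 1 (Egr1) with the replicate block, with or without the dye term, 2 (Egr1 and Dusp1) with Lmx1a in Cy5 only, and 0 in every other alternative that tested all members. Egr1 alone was refitted in the 6 block fits of 5 arrays, and passed in 1. Over all probes, 0 were called by limma (3743 at an unadjusted p under 0.05). The count was 342 with the replicate block, 333 with the block and dye term, 49 with median centring, 993 in Cy5 only, 215 in Cy3 only, 1 without the dimmest array, and 0 to 1 when a replicate was left out. In the 5-array block fits it was 12 to 185. Member probes with dye bias, 1 here, were 9 with median centring, 2 when background was left uncorrected, 0 with plain subtraction or print-grid loess, and 0 to 1 when a replicate was left out. The share of all probes, 6.8%, was counted for the main setting only. The other counts therefore cannot be told apart from an effect of the setting on all probes.

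Signs turned, without any call, in these cases. Egr2 was at 0.00022 without background correction, 0.047 in Cy5 only, and 0.0021, 0.030 and 0.019 without the Cy5 array of pool 1 or the Cy3 array of pool 2 or 3. Fos was at 0.0089 in Cy3 only, and 0.030 and 0.017 without the Cy5 array of pool 1 or the Cy3 array of pool 2. Fosb was at 0.024 with median centring, 0.092 in Cy5 only, 0.0048 without the dimmest array, and 0.031 and 0.044 without the Cy3 array of pool 2 or 3. Ier2 was at -0.017 with median centring, -0.049 in Cy3 only, and -0.023 and -0.018 without the Cy5 array of pool 1 or 2. Atf3 was at 0.020 in Cy5 only. With 1 replicate left out, Egr2 ran from -0.021 to 0.013, Fos from -0.043 to 0.016, Fosb from -0.028 to 0.011 and Ier2 from -0.0064 to 0.025. The cause was not tested. The single-array alternatives other than the dimmest, and the dye term, were chosen after seeing the data. Members detected in both channels on every array were 6 at 2 background standard deviations, 7 at 1 and 6 at 3. For all probes such a count was made at 2 only. Low signal over background limits Egr2 and Fos, and Junb could not be measured.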
